A study of Mus musculus with 6 samples.

Results

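The 43 genes described here belong to the transforming growth factor beta (TGF-beta) and bone morphogenetic protein (BMP) pathways: ligands, the proteins that store and release them, receptors, secreted antagonists, SMAD proteins with their regulators, and the ID target genes. They come from a list of gene names, and a gene was kept if the array annotation had a row naming that gene alone. All 43 of 43 listed genes had such a row, out of 19752 genes with a row of their own. Smurf2 had more than 1 row, and the row with the highest mean over the 6 arrays stands for it.

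TGF-beta ligands leave the cell bound in latent complexes, and once released they bring type II and type I receptors together, which phosphorylate SMAD2 and SMAD3. BMPs act through a related set of receptors on SMAD1, SMAD5 and SMAD9, and activins share the TGF-beta branch of SMADs. Both branches use SMAD4 as a partner in the nucleus, and inhibitory SMADs, ubiquitin ligases and secreted antagonists limit them. In the artery wall these pathways are known for their part in smooth muscle differentiation, matrix production and endothelial stability.

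The arrays compared aortas of 2 groups of C57BL/6 mice aged 20 weeks, with 3 arrays in each group and no treatment. The ApoE-KO group was apoe-/-, and the DKO group was apoe-/- adora1-/-, lacking Adora1, the adenosine A1 receptor gene, as well as Apoe. Both groups therefore lacked apolipoprotein E, whose loss raises plasma cholesterol and leads to atherosclerosis, and the comparison addressed what the further loss of the A1 receptor did to gene expression in such aortas. The labels name no Cre line or promoter, so the deletions are read as carried by all cells of the animal, and wild-type aortas or aortas lacking Adora1 alone were not analysed here. The design text of the series calls the comparison group Adora1 knockouts. Every sample label of that group reads apoe-/- instead, and these labels decided the grouping. The design text counts 3 mice in each group, and the level of Adora1 itself was not analysed here.

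Values are log2 intensities, on which 1 unit is a 2-fold step, and differences are DKO minus ApoE-KO. Smooth muscle actin (Acta2) lay between 13.97 and 14.06 and smooth muscle myosin (Myh11) between 13.23 and 13.61 on the 6 arrays, far above the array medians of 8.01 to 8.02, as the labelled tissue calls for. Several other marker lists moved between arrays or groups, given here as the mean log2 intensity of each list. The 5 lung markers lay at 11.04 in ApoE-KO replicate 3 and 10.39 in DKO replicate 3, against 6.73 to 6.86 on the other arrays, so results are also given without the replicate 3 arrays. The 6 macrophage markers with a row lay at 8.96 in DKO replicate 1, against 9.57 to 10.06 on the others. The 7 endothelial markers lay at 10.31 and 10.37 in the replicate 1 arrays, against 10.76 to 10.83 on the others. Mesothelial markers were higher in DKO in 6 of 6 genes (7.83 to 8.28 against 7.22 to 7.59), and lymphatic endothelial markers were lower in 6 of 6 (8.13 to 8.37 against 8.54 to 8.98). White fat markers were lower in 6 of 7 genes, over 9.36 to 10.20 in DKO and 9.96 to 10.67 in ApoE-KO. Sympathetic nerve markers were lower in 5 of 5 genes, by -0.562 on average, with ApoE-KO replicate 3 at 8.27 against 6.75 to 7.05 on the other arrays. Skeletal muscle markers were lower in 6 of 6 genes and highest in the replicate 3 arrays, at 8.28 and 7.96, against 7.22 to 7.42 elsewhere. Red cell markers were higher in 2 of 2 genes, by 0.461 on average. What part these tissues have in the results below was not tested, and in a bulk sample fewer cells of a type and less RNA per cell cannot be told apart.

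No gene of the TGF-beta and BMP set passed the test between the genotypes. Fitted with limma over all 25254 probe sets, 0 of 43 members had a Benjamini-Hochberg adjusted p under 0.05, as did 0 probe sets in all (0.0%). The smallest adjusted p among members was 0.861. With arrays of the same replicate number taken as a pair (the replicate block), 44 probe sets passed (0.174%) and again 0 members, with a smallest adjusted p of 0.0770 for Inhba. The differences were small: the median absolute difference was 0.106 over the members and 0.0826 over all probe sets. In 34 of 43 members the 95% interval without pairing lay within 0.5 of 0, and in 42 of 43 it lay within 1 of 0, Inhba being the exception.

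Without an adjustment, 2 members had a limma p under 0.05 without pairing, both lower in DKO: Thbs1, which encodes a matrix protein that activates latent TGF-beta, and Nog, which encodes the BMP antagonist noggin. That is 4.65% of the members, beside 2.68% of all probe sets in that direction. On the higher side there were 0 members, beside 2.94% of all probe sets. With the replicate block, 12 members had an unadjusted p under 0.05. Of these, 8 were higher in DKO (18.6%, beside 10.1% of all probe sets), namely Tgfb1, Tgfb3, Ltbp1, Inhba, Tgfbr1, Bmpr1a, Bmpr2 and Smad5. The other 4 were lower (9.30%, beside 6.10% of all probe sets), namely Thbs1, Acvrl1, Nog and Id3. None of these 12 is a call, since none passed over all probe sets.

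The arrays of the 2 groups did not overlap in 3 members. Bmpr2, the type II BMP receptor gene, was higher on all DKO arrays, which is 2.33% of the members beside 5.55% of all probe sets. Nog and Bmper were lower on all DKO arrays, which is 4.65% beside 6.47%. The difference had the same sign within all 3 replicate numbers in 13 members on the higher side (30.2%, beside 21.2% of all probe sets) and in 6 on the lower side (14%, beside 19.1%). In all, 26 members had a higher mean in DKO and 17 a lower one, so that 60.5% were higher, beside 49.3% of all probe sets. After renewed quantile normalization 22 were higher and 21 lower.

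Levels moved with the replicate number in both groups. In 34 of 43 members (79.1%) the range of the 3 replicate-number means was wider than the difference between genotypes, as it was in 80.4% of all probe sets. A range over 3 means tends to exceed a difference between 2. The median range was 0.237 over the members and 0.192 over all probe sets. Replicate number 1 had the highest mean in 22 members, number 2 in 15 and number 3 in 6. Over all 25254 probe sets these counts were 11059, 7477 and 6718, so replicate number 1 was most often highest there too. The median standard error of a member's difference was 0.115 without pairing and 0.0647 with the replicate block. What same-numbered arrays share is not stated in the labels.

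**Figure D1:**
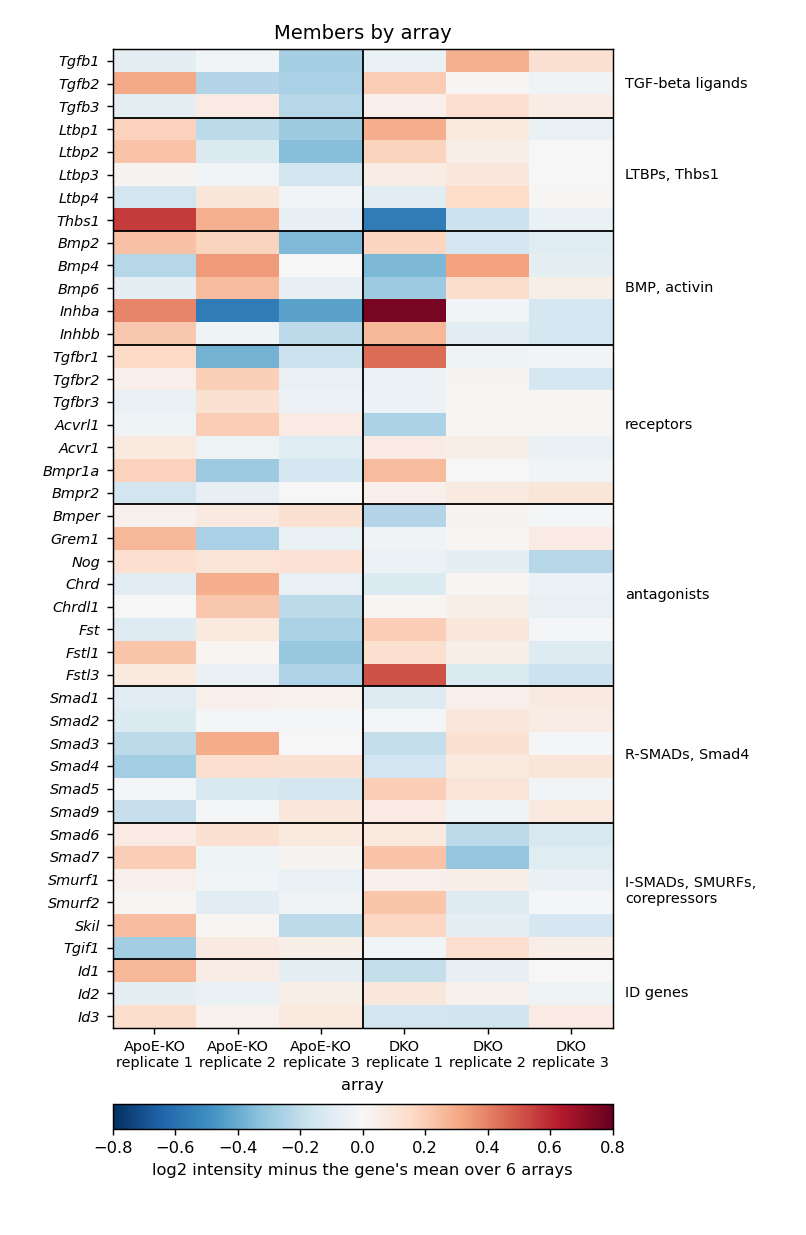
Each cell is the log2 intensity of 1 member on 1 array minus that gene's mean over the 6 arrays, with the members in rows by role and the arrays in columns. The strongest colours lie in Inhba and Thbs1, and in Inhba the replicate 1 array is above the gene's mean in both groups, at 10.93 in ApoE-KO and 11.30 in DKO, while the other arrays of both groups lie below it.

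The 3 TGF-beta ligand genes all had higher means in DKO, by a median of 0.157, and none passed. That median was 0.263 without ApoE-KO replicate 1 and 0.0819 without ApoE-KO replicate 3. Tgfb1, the isoform of immune cells, platelets and the vessel wall, read 10.59, 10.63 and 10.39 in ApoE-KO replicates 1 to 3, against 10.60, 10.94 and 10.78 in the same DKO replicates. The lowest DKO array lay among the ApoE-KO arrays, and the pair differences were 0.02, 0.31 and 0.39. The difference of 0.24 (95% interval -0.03 to 0.51) had a limma adjusted p of 0.862, and 0.229 with the replicate block. Platelet and megakaryocyte markers, a further source of Tgfb1 RNA, were higher in DKO in 4 of 4 genes, at 9.85 to 10.41 against 9.59 to 10.05. The pair differences of these markers were 0.256, 0.001 and 0.358. Macrophage markers differed by -0.0924 on average, with 4 of 6 genes lower in DKO and pair differences of -0.697, 0.242 and 0.177. The part of either list was not tested.

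Tgfb3 read 12.35, 12.48 and 12.19 in ApoE-KO against 12.46, 12.56 and 12.48 in DKO. The groups overlapped through the second ApoE-KO array, and the difference was 0.16 (95% interval -0.05 to 0.37, limma adjusted p = 0.862). Tgfb2, the isoform best known from heart and vessel development, stood at 10.07 ± 0.32 in ApoE-KO and 10.20 ± 0.12 in DKO (SD, n = 3 each). Its pairs did not share a sign, at -0.10, 0.25 and 0.23, and its highest array was ApoE-KO replicate 1 at 10.44. Over the 3 ligand genes the median pair differences were 0.02, 0.25 and 0.29. In replicate number 1 the genes did not share a sign, at 0.02 for Tgfb1, -0.10 for Tgfb2 and 0.11 for Tgfb3.

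The latent TGF-beta binding proteins tether the latent complex to matrix, and their 4 genes had higher means in DKO. Ltbp1 read 12.34, 11.96 and 11.88 in ApoE-KO against 12.45, 12.24 and 12.11 in DKO. Replicate 1 was the highest array in both groups, and ApoE-KO replicate 1 lay above 2 of the 3 DKO arrays. The difference was 0.21 with a standard error of 0.14 without pairing (limma adjusted p = 0.883). With the replicate block the 95% interval was 0.08 to 0.34 (limma adjusted p = 0.157), since the pairs differed by 0.11, 0.28 and 0.23. It was 0.115 without DKO replicate 1 and 0.351 without ApoE-KO replicate 1.

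Ltbp3 differed by 0.10 (95% interval -0.08 to 0.27) with pairs at 0.04, 0.11 and 0.15. Ltbp4, which also binds elastic fibre proteins, differed by 0.05 with pairs at 0.06, 0.04 and 0.03, the closest set of pairs in this group of genes. Ltbp2, which binds fibrillin and does not bind latent TGF-beta, differed by 0.15 (95% interval -0.20 to 0.50), and its first pair was below 0 at -0.05. None of the 4 genes passed.

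Thbs1, which encodes thrombospondin 1, had the widest difference of the 43 members and was opposite in sign to the binding proteins. It read 11.32, 11.04 and 10.69 in ApoE-KO against 10.20, 10.59 and 10.70 in DKO. The groups overlapped: ApoE-KO replicate 3 lay just under DKO replicate 3. The difference of -0.52 (95% interval -0.97 to -0.07) had a limma adjusted p of 0.861, and 0.250 with the replicate block. The pairs were far apart, at -1.12, -0.45 and 0.02. With the block the difference was -0.219 without pair 1 and -0.787 without pair 3, so pair 1 sets much of its size. DKO replicate 1, the lowest array for Thbs1, is also the array with the lowest macrophage markers. Their pair differences were -0.697, 0.242 and 0.177, with 4 of 6 genes lower in DKO. Fibroblast markers had pair differences of -0.158, 0.0113 and 0.181, with 4 of 7 genes higher in DKO. Platelet and megakaryocyte markers had pair differences of 0.256, 0.001 and 0.358, with 4 of 4 genes higher. The part of these lists in the Thbs1 difference was not tested.

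**Figure D2:**
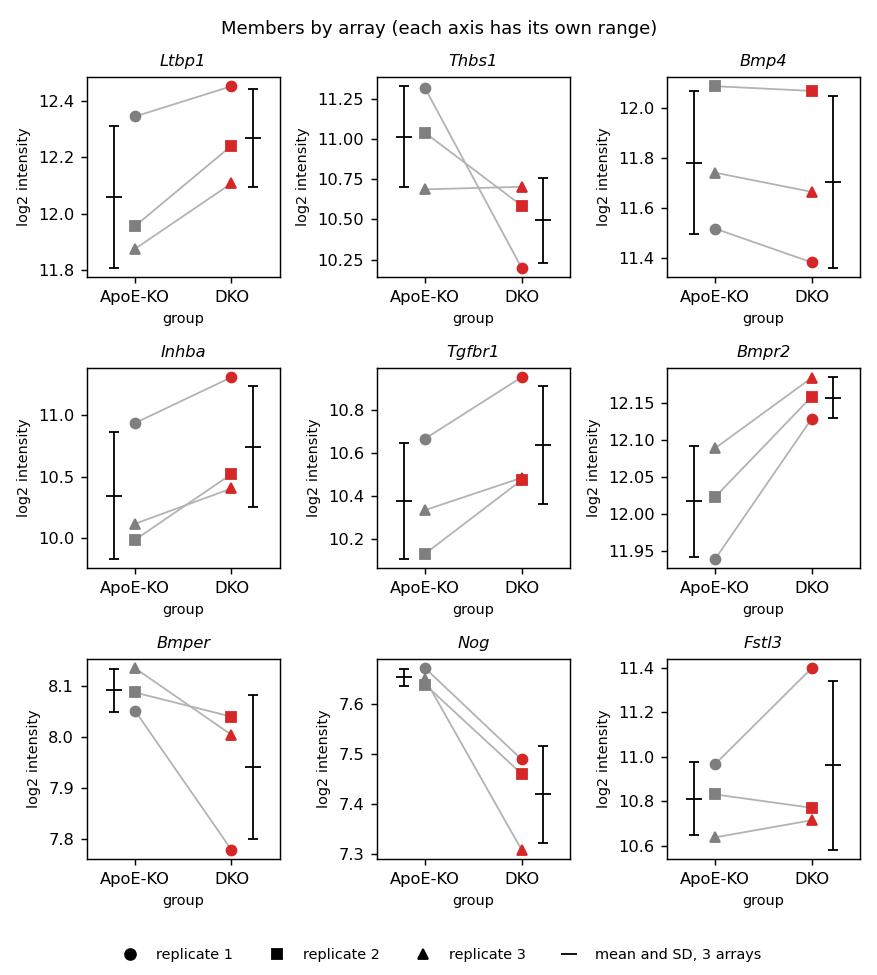
Log2 intensity of 9 members on each array, with grey marks for ApoE-KO and red for DKO, shapes for the replicate number, lines joining arrays of the same number, and bars for the mean and SD of 3 arrays. Nog, Bmper and Bmpr2 are the 3 members whose groups do not overlap, while Thbs1 has 1 flat line, replicate number 3, and the lines of Inhba, Ltbp1 and Tgfbr1 all slope upwards.

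Among the BMP and activin ligands, 2 genes had higher and 3 lower means, with a median of -0.0372. Inhba, which encodes the beta A subunit of activin and inhibin, had the highest spread of all members. It read 10.93, 9.99 and 10.12 in ApoE-KO against 11.30, 10.52 and 10.40 in DKO. The replicate 1 arrays were the highest of each group, and ApoE-KO replicate 1 lay above the lower 2 DKO arrays. The difference of 0.40 had a 95% interval of -0.34 to 1.14 without pairing (limma adjusted p = 0.893). The pairs differed by 0.37, 0.53 and 0.29, and with the replicate block the interval narrowed to 0.24 to 0.55 (limma adjusted p = 0.0770). Leaving out single arrays moved the difference from 0.116 (DKO replicate 1) to 0.690 (ApoE-KO replicate 1). It was 0.452 without the replicate 3 arrays.

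Inhbb, the gene of the beta B subunit, was nearly level between the genotypes at 7.81 ± 0.21 and 7.84 ± 0.22 (SD, n = 3 each). Its 95% interval of -0.32 to 0.37 leaves room for differences of that size. Both activin subunit genes had their highest arrays in replicate number 1, which had the highest mean in 22 of the 43 members.

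Bmp4, a BMP of endothelium and the outer vessel wall, followed the replicate number almost entirely. It read 11.52, 12.09 and 11.74 in ApoE-KO against 11.38, 12.07 and 11.66 in DKO. Replicate 2 was the highest and replicate 1 the lowest array in both groups, a range of 0.628 between replicate-number means, against a difference of -0.08 between genotypes (95% interval -0.56 to 0.40 without pairing, -0.20 to 0.04 with the block). The endothelial marker list was likewise lowest in the replicate 1 arrays. White fat markers were lowest in replicate 1 and highest in replicate 2 in both groups. They lay at 9.96, 10.67 and 10.33 in ApoE-KO and at 9.36, 10.20 and 9.75 in DKO. The part of either list was not tested.

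Bmp6, the BMP that also controls hepcidin, stood at 11.37 ± 0.19 and 11.30 ± 0.23 (SD, n = 3 each), with pairs at -0.21, -0.11 and 0.11. Bmp2, which drives osteogenic programmes in calcifying vessels, stood at 8.39 ± 0.32 and 8.36 ± 0.17, with pairs at -0.06, -0.31 and 0.26. In neither gene did the pairs share a sign. Without ApoE-KO replicate 1 the median of the BMP and activin ligands was 0.0701, of the opposite sign.

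The 7 receptor genes had a median difference of 0.0402, with 4 higher and 3 lower, and this median was -0.00182 after renewed quantile normalization. Tgfbr1, the type I TGF-beta receptor that phosphorylates SMAD2 and SMAD3, read 10.67, 10.13 and 10.33 in ApoE-KO against 10.95, 10.47 and 10.48 in DKO. DKO replicate 1 was the highest of the 6 arrays, and ApoE-KO replicate 1 came next, above both other DKO arrays. The difference was 0.26 (95% interval -0.17 to 0.68, limma adjusted p = 0.883). With the block the interval was 0.11 to 0.40 (limma adjusted p = 0.132). It ranged from 0.102 without DKO replicate 1 to 0.404 without ApoE-KO replicate 1.

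Tgfbr2, the type II receptor that pairs with it, stood on the other side of 0. It read 11.03, 11.18 and 10.92 in ApoE-KO against 10.94, 11.01 and 10.85 in DKO, so the groups overlapped. The difference was -0.11 (95% interval -0.33 to 0.11, limma adjusted p = 0.900), with pairs at -0.09, -0.17 and -0.08. Tgfbr3, the co-receptor betaglycan that presents TGF-beta2, was level at 11.03 ± 0.10 and 11.02 ± 0.04 (SD, n = 3 each).

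Bmpr2, which partners the type I BMP receptors and is mutated in heritable pulmonary arterial hypertension, read 11.94, 12.02 and 12.09 in ApoE-KO against 12.13, 12.16 and 12.18 in DKO. Every DKO array lay above every ApoE-KO array, by a narrow margin between 12.09 and 12.13. The difference was 0.14 (95% interval -0.02 to 0.31, limma adjusted p = 0.862), and with the block the adjusted p was 0.237. It stayed between 0.0978 and 0.176 in all 18 other settings tried.

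Bmpr1a, a type I BMP receptor gene, differed by 0.16 (95% interval -0.17 to 0.49), and its pairs were 0.07, 0.30 and 0.11. Its arrays followed the pattern of Tgfbr1, with replicate 1 highest in both groups at 11.80 and 11.87. Acvrl1, which encodes the endothelial type I receptor ALK1 for BMP9 and BMP10, read 10.40, 10.63 and 10.50 in ApoE-KO against 10.19, 10.46 and 10.44 in DKO. Its difference was -0.15 (95% interval -0.41 to 0.11, limma adjusted p = 0.884, and 0.280 with the block). The endothelial markers differed by 0.045, with 6 of 7 genes higher, and the lymphatic endothelial markers by -0.443, with 6 of 6 genes lower. The part of either list was not tested. Acvr1, the gene of the type I receptor ALK2, differed by 0.04 (95% interval -0.17 to 0.25).

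**Figure D3:**
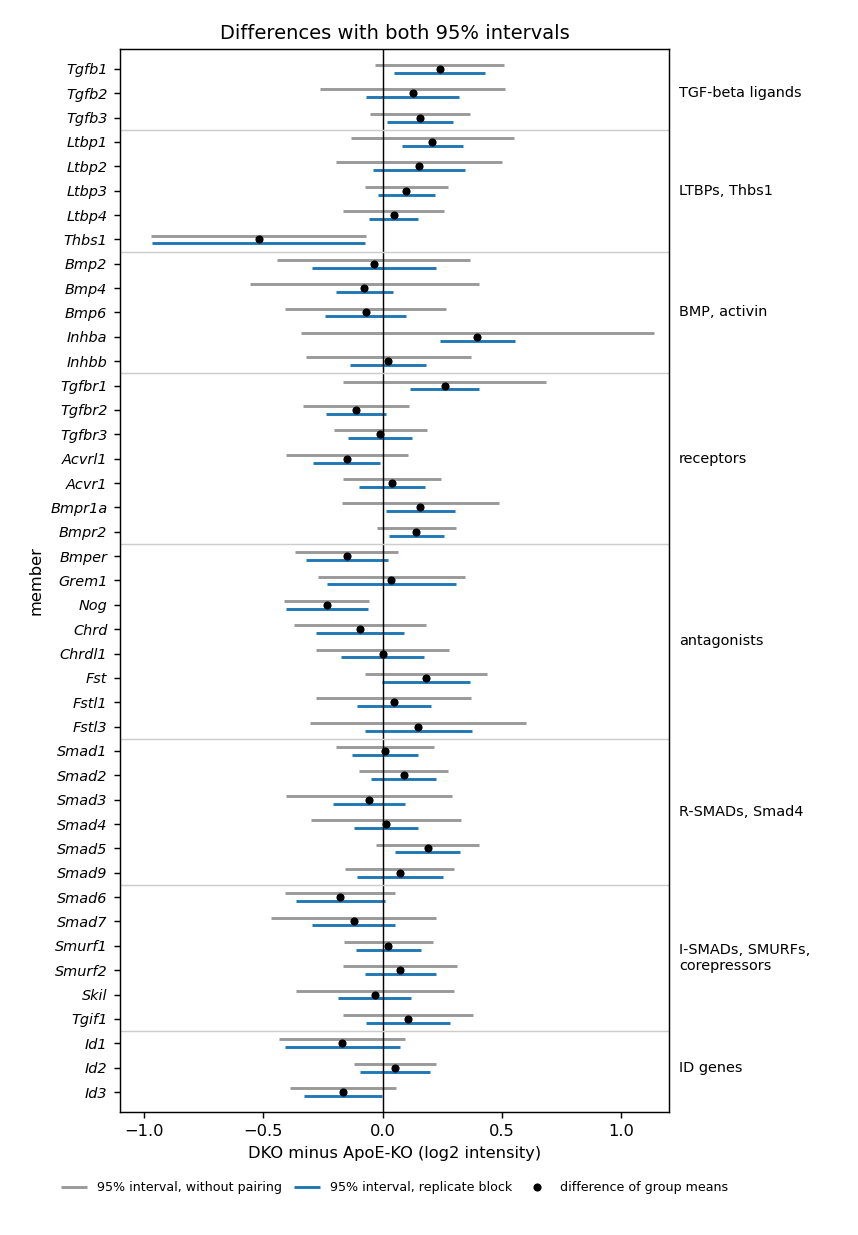
Points are the DKO minus ApoE-KO differences of the 43 members in log2 intensity, by role, with 95% intervals from limma without pairing (grey) and with the replicate block (blue). Without pairing only Thbs1 and Nog have intervals that leave out 0, and the blue intervals of Inhba and Tgfbr1 are much narrower than the grey ones.

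The 8 secreted antagonists and modulators split evenly, 4 higher and 4 lower, with a median of 0.0179. Nog encodes noggin, which binds BMPs and keeps them from their receptors. It read 7.67, 7.64 and 7.65 in ApoE-KO against 7.49, 7.46 and 7.31 in DKO. The 3 ApoE-KO arrays were nearly identical, and all DKO arrays lay below them. The difference was -0.23 (95% interval -0.41 to -0.06, limma adjusted p = 0.861), and with the block the adjusted p was 0.199. The pairs were -0.18, -0.18 and -0.34, and the difference stayed between -0.269 and -0.179 in all 18 other settings. All of these levels lie below the array medians of 8.01 to 8.02.

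Bmper, which encodes a secreted protein that binds BMP4 and can both block and promote its signal, read 8.05, 8.09 and 8.14 in ApoE-KO against 7.78, 8.040 and 8.005 in DKO. The groups did not overlap, but the margin was narrow, from 8.040 to 8.05, and DKO replicate 1 stood lowest. The difference was -0.15 (95% interval -0.37 to 0.07, limma adjusted p = 0.866), and with the block the adjusted p was 0.362. Without DKO replicate 1 it was -0.0691.

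The other BMP antagonists did not share a direction. Grem1, the gremlin gene, read 7.77, 7.25 and 7.45 in ApoE-KO against 7.48, 7.52 and 7.58 in DKO, and its pairs of -0.29, 0.27 and 0.13 averaged to 0.04. Its levels also lay below the array medians. Chrd, the chordin gene, differed by -0.10 (95% interval -0.37 to 0.18), with ApoE-KO replicate 2 the highest array at 9.04. Chrdl1, a chordin-like gene, had equal means of 10.17 in both groups, with SDs of 0.21 and 0.06 over 3 arrays.

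The follistatins bind activins, and Fst itself read 8.38, 8.55 and 8.22 in ApoE-KO against 8.67, 8.57 and 8.46 in DKO. Its difference of 0.18 (95% interval -0.07 to 0.44, limma adjusted p = 0.866) had pairs of 0.30, 0.01 and 0.24. Fstl3, a second activin and myostatin binder, read 10.97, 10.83 and 10.64 in ApoE-KO against 11.40, 10.77 and 10.71 in DKO. DKO replicate 1 stood apart from the other DKO arrays and produced most of the 0.15 difference, since the other 2 pairs were -0.06 and 0.08. Fstl1, a related glycoprotein of mesenchymal cells, stood at 12.68 ± 0.27 and 12.72 ± 0.12 (SD, n = 3 each). Inhba, Inhbb, Fstl1 and Fstl3 had their highest arrays, the replicate 1 arrays, in common in both groups. Replicate number 1 had the highest mean in 22 of the 43 members, so this is not particular to the activin genes.

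The receptor-regulated SMADs and Smad4 had a median difference of 0.0429, with 5 of 6 genes higher, and -0.0169 without ApoE-KO replicate 1. Smad5, which carries BMP signals, read 9.72, 9.61 and 9.58 in ApoE-KO against 9.93, 9.83 and 9.71 in DKO. ApoE-KO replicate 1 and DKO replicate 3 overlapped by a narrow margin, and the pairs were 0.21, 0.22 and 0.13. The difference was 0.19 (95% interval -0.03 to 0.40, limma adjusted p = 0.862; 0.199 with the block). The other SMADs of the BMP branch differed by less: Smad1 by 0.01 (95% interval -0.20 to 0.21) and Smad9 by 0.07 (95% interval -0.16 to 0.30).

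In the TGF-beta branch, Smad2 differed by 0.09 with closely matched pairs of 0.09, 0.10 and 0.07 (95% interval -0.10 to 0.28, limma adjusted p = 0.909). Smad3 differed by -0.06 and varied more between arrays, from 9.82 in ApoE-KO replicate 1 to 10.33 in ApoE-KO replicate 2. Smad4, the shared partner, read 11.19 and 11.30 in the replicate 1 arrays and 11.53 to 11.58 on the other 4, with a difference of 0.01 between genotypes. Smad3 and Smad4 were both lowest in replicate number 1, as the endothelial, white fat and some other marker lists were, whose part was not tested.

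The inhibitory SMADs are induced by the pathways they limit. Smad6, which acts mainly on BMP signals, read 9.85, 9.90 and 9.86 in ApoE-KO against 9.86, 9.57 and 9.65 in DKO. The 3 ApoE-KO arrays lay close together, and DKO replicate 1 lay among them while the other 2 were lower. The difference was -0.18 (95% interval -0.41 to 0.05, limma adjusted p = 0.862; 0.324 with the block). Smad7, which acts on both branches, had the same order of pairs, 0.03, -0.28 and -0.12, and a difference of -0.12 (95% interval -0.47 to 0.22).

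The SMURF ubiquitin ligases and the SMAD corepressors differed little. Smurf1 differed by 0.02 (95% interval -0.16 to 0.21). Smurf2 differed by 0.07, and DKO replicate 1 at 11.31 was its highest array against 10.99 to 11.10 on the others. Skil, the gene of the corepressor SnoN, differed by -0.03, and Tgif1, a homeobox corepressor, by 0.11, with ApoE-KO replicate 1 its lowest array at 8.37. The whole group had 3 genes higher and 3 lower, a median of -0.00474, and no member at an unadjusted p under 0.05 in either fit.

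The ID genes encode inhibitors of basic helix-loop-helix factors and are direct BMP targets, so the upstream sequences of Id2 and Id3 are shown, read from RefSeq on GRCm38.p6; no window was used for Id1. Each window is the 250 bases before the gene's start, written 5′ to 3′ on the gene's strand, with Id2 at chr12:25096093-25096342 on the minus strand and Id3 at chr4:136143572-136143821 on the plus strand. Capitals mark GGCGCC, a GC-rich element that SMAD1 and SMAD5 are known to bind, and CAGAC or its complement GTCTG, which contains the SMAD box bound by SMAD3 and SMAD4. The motifs do not overlap in these windows.
Id2: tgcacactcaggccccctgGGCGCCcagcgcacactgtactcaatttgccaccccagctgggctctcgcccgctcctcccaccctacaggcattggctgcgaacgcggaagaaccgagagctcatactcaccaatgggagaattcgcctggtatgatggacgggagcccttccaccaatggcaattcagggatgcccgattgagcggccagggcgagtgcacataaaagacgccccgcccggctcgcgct
Id3: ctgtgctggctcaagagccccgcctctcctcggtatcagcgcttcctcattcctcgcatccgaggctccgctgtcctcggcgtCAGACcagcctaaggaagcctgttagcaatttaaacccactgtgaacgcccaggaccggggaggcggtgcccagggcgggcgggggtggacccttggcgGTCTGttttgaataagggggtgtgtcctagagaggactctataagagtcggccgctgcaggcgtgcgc
The Id2 window held 1 GGCGCC and 0 CAGAC, and the Id3 window held 0 GGCGCC and 2 CAGAC, counting both strands. Over all 32851 promoter windows of the same length in the table, 9.59% held GGCGCC and 42.2% held CAGAC. Of the members, 30 had at least 1 window, 40 in all, of which 27.5% held GGCGCC and 42.5% held CAGAC. Some genes had more than 1 window, and base composition was not compared, so these shares are not read as an excess in the members. A match describes letters in a window, and the arrays measured no binding.

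Id1 and Id3 had lower means in DKO and Id2 did not. Id1 read 10.04, 9.83 and 9.70 in ApoE-KO against 9.58, 9.71 and 9.78 in DKO, with pairs of -0.46, -0.13 and 0.08, so the pairs ran from clearly lower to slightly higher. Id3 read 10.29, 10.18 and 10.23 in ApoE-KO against 9.995, 9.986 and 10.21 in DKO. Its first 2 DKO arrays lay below all ApoE-KO arrays, and DKO replicate 3 lay among them. The difference of Id3 was -0.17 (95% interval -0.39 to 0.05, limma adjusted p = 0.862), and with the block the adjusted p was 0.305. Id2 stood at 12.00 ± 0.06 and 12.05 ± 0.07 (SD, n = 3 each), with pairs of 0.16, 0.09 and -0.09. The median of the 3 genes was -0.166 and became -0.0254 with the block when pair 1 was left out.

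**Figure D4:**
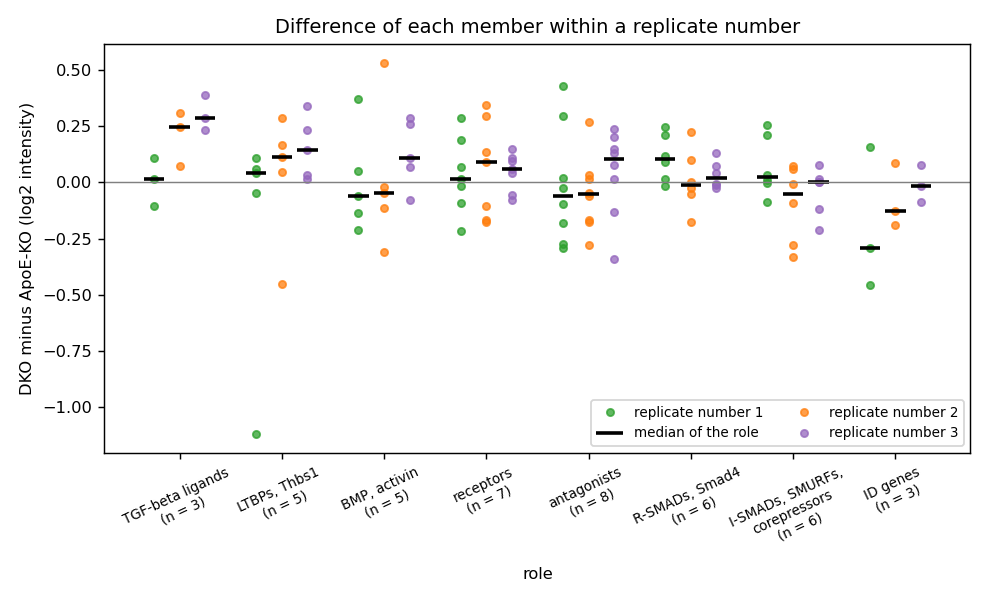
Each point is the DKO minus ApoE-KO difference of 1 member within 1 replicate number, in log2 intensity, grouped by role, and the black bars are the medians of each role. The medians of the 3 TGF-beta ligand genes are 0.02, 0.25 and 0.29, those of the 3 ID genes are -0.29, -0.13 and -0.02, and most other medians lie close to 0.

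Across the roles, the median pair differences of all 43 members were 0.0155, -0.0094 and 0.0684, beside -0.00051, -0.00966 and 0.0167 over all probe sets. Replicate number 3 gave the highest median for the TGF-beta ligands, the binding proteins with Thbs1, the BMP and activin ligands, the antagonists and the ID genes. The replicate 3 arrays are those with the lung transcripts. Without them the difference was 0.196 for Ltbp1, 0.314 for Tgfbr1, 0.163 for Bmpr2, -0.160 for Bmper and -0.181 for Nog, each of the sign it had with all arrays. With the block and without pair 3, the median of the TGF-beta ligands was 0.0913, against 0.157 with all arrays. That of the binding proteins with Thbs1 was 0.0595, against 0.0993. The direction of 21 members was the same under every setting tried, and 22 changed sign under at least 1, among them Bmp2, Bmp4, Grem1, Smad3, Smad7 and Id2.

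Of 110 further gene symbols listed for the pathway, 101 had a row. Of these, 0 passed in either fit (smallest limma adjusted p 0.861 without pairing and 0.0517 with the block). Without pairing, 2 were higher (1.98%, beside 2.94% of all probe sets) and 3 lower (2.97%, beside 2.68%) at an unadjusted p under 0.05. With the block 14 were higher (13.9%, beside 10.1%) and 12 lower (11.9%, beside 6.10%). The groups did not overlap in 5 genes on the higher side (4.95%, beside 5.55%) and 9 on the lower side (8.91%, beside 6.47%). The 8 with the smallest p are described here.

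Tmem100, an endothelial gene that BMP9 and ALK1 induce, had the widest difference of these 8. It read 9.57, 10.28 and 10.24 in ApoE-KO against 8.92, 9.02 and 9.501 in DKO. All DKO arrays lay below all ApoE-KO arrays, and the pairs were -0.65, -1.26 and -0.74. The difference was -0.89 (95% interval -1.43 to -0.34, limma adjusted p = 0.861), and with the block the adjusted p was 0.0517. With the block but without pair 1, it passed, at -1.0 (limma adjusted p = 0.0109), while without pair 2 or without pair 3 none of the 101 genes, Tmem100 included, passed. Lymphatic endothelial markers were also lower on all DKO arrays, and their part was not tested.

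Bmp3, a BMP family member that antagonises other BMPs, read 8.26, 8.05 and 8.10 in ApoE-KO against 8.98, 8.64 and 8.39 in DKO. The groups did not overlap, and the difference was 0.53 (limma adjusted p = 0.861; 0.0827 with the block). Acvr1c, the gene of the type I receptor ALK7, which adipocytes also express, read 7.42, 8.01 and 7.65 in ApoE-KO against 7.13, 7.39 and 7.15 in DKO. Its difference of -0.47 (limma adjusted p = 0.861; 0.0827 with the block) passed with the block without pair 1, at -0.560 (adjusted p = 0.0278). White fat markers were lower in each pair, at -0.604, -0.467 and -0.587, and their part was not tested. Lum, the gene of the matrix proteoglycan lumican, also passed in that setting, at 0.566 (limma adjusted p = 0.0155), and is named here after its value was seen. Its pairs were -0.19, 0.47 and 0.66, so the pair left out had the opposite sign, and over all arrays the Lum difference was 0.31 with overlapping groups (limma adjusted p = 0.862; 0.357 with the block).

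Itgb8, the integrin subunit that helps release active TGF-beta from its latent form, read 9.01, 8.76 and 8.80 in ApoE-KO against 9.39, 9.23 and 9.03 in DKO. All DKO arrays were higher, and the difference was 0.36 (95% interval 0.07 to 0.65, limma adjusted p = 0.861; 0.0967 with the block). Usp15, a deubiquitinase acting on SMADs and the type I receptor, differed by 0.19 with pairs of 0.17, 0.18 and 0.24. Nbl1, a BMP antagonist gene of the DAN family, differed by -0.34 with pairs of -0.27, -0.61 and -0.16.

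Among TGF-beta response genes, Snai2, a transcription factor of mesenchymal cells, read 9.53, 9.56 and 9.74 in ApoE-KO against 9.41, 9.32 and 9.37 in DKO. The difference was -0.25 (95% interval -0.46 to -0.04, limma adjusted p = 0.861; 0.174 with the block). Junb, an early response gene, differed by -0.44 (95% interval -0.91 to 0.04), and ApoE-KO replicate 2 at 9.39 was its highest array. The 17 TGF-beta response genes with a row had a median difference of -0.0179, with 8 higher and 9 lower. The 9 BMP response genes had a median of 0.0666, with 5 higher and 4 lower.

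**Figure D5:**
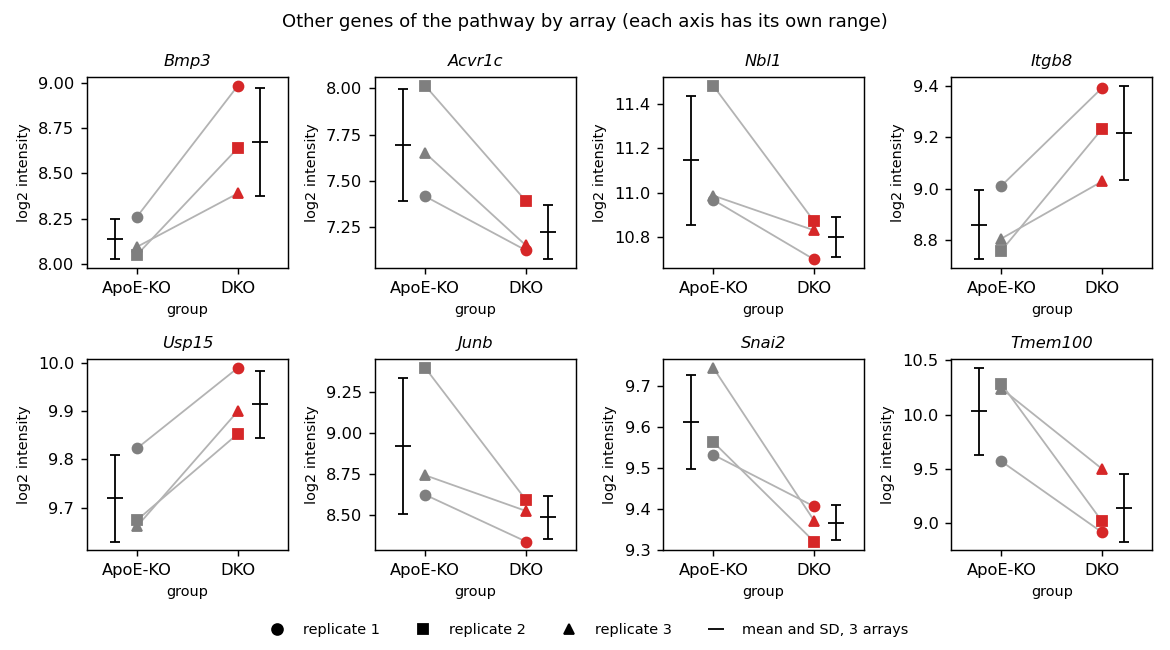
Log2 intensity of 8 further pathway genes on each array, with grey marks for ApoE-KO, red for DKO, shapes for the replicate number, lines joining arrays of the same number, and bars for the mean and SD of 3 arrays. They were picked by smallest p without pairing, their groups do not overlap, and Tmem100 shows the widest difference, -0.89, with every pair on the same side.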

How the data were processed

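The authors deposited 1 table of log2 values for 6 arrays and 25254 probe sets. The submitters' processing notes name RMA, Partek and the mouse build mm9, with no versions, and the Affymetrix labelling kit is named per the labels' protocols. A removal of batch effects is stated in none of the sources used here. The symbols of all 43 members were found in a RefSeq table.

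All probe sets were fitted with limma 3.58.1 under R 4.3.3, using lmFit and eBayes with a trend on intensity. P-values are two-sided and were adjusted by Benjamini-Hochberg over all probe sets, with 0.05 as the threshold, and low values were kept. The code of the fit was tested on simulated arrays, drawn without a link between same-numbered arrays and with shifts larger than the members' differences. That check covers the code and not the power to find differences of the members' size. The design text used an array batch that no label gives, so the fit without pairing came first. Deviations of same-numbered arrays from their group means correlated at 0.60, 0.50 and 0.64 over all probe sets. Replicate numbers were therefore treated as pairs, a reading of the data that no label states, and values with the replicate block stand beside the results. Correlations between arrays ran from 0.983 to 0.995. The number of arrays limits the precision: the smallest p of an exact permutation test with 3 arrays in each group is 0.1.

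The members, roles, other pathway genes and marker lists were chosen with earlier results of these data known. Members are given in full if they passed in either fit, had an unadjusted p under 0.05 without pairing or under 0.01 with the block, or had groups that did not overlap. The 4 with the largest spread within a group are also given by array. Of the other pathway genes, the 8 with the smallest p without pairing, and any that pass in either fit, are named. No set test was run. Promoter windows come from RefSeq on GRCm38.p6, and no coordinates are given for probe sets, whose notes name another build. The 9 other listed pathway symbols without a row were not analysed here. Ctgf, among them, is an older symbol of Ccn2, which had a row and is counted.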

Additional observations from a re-analysis of the deposited data

How the results depend on the processing

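Under all 19 settings tried beside the fit without pairing, 0 members passed an adjusted p of 0.05, and the differences of Ltbp1, Thbs1, Inhba, Tgfbr1, Bmpr2, Bmper and Nog kept their direction in each of the 18 settings computed for them. The replicate block moved the count of probe sets passing from 0 to 44, of members at an unadjusted p under 0.05 from 2 to 12, and of other pathway genes at that p from 5 to 26. As an unmoderated linear model, the block gave 7 members and 11 other genes at that p, and 0 probe sets passed. With the block and without pair 1, 415 probe sets and 3 other pathway genes passed, 12 members and 23 other genes had an unadjusted p under 0.05, 19 members had groups that did not overlap, and the ID gene median was -0.0254. Without pair 2, 0 probe sets and 0 other pathway genes passed, 6 members and 22 other genes had an unadjusted p under 0.05, and 7 members had no overlap, with a BMP and activin ligand median of 0.059. Without pair 3 these last 3 counts were 9, 26 and 12, and 48 probe sets passed. Without both replicate 3 arrays and without pairing, 1 member had an unadjusted p under 0.05, and 12 had groups that did not overlap. Array weights gave 4 members and 11 other genes at that p. Quantile normalization gave 6 members without overlap and medians of -0.00182 for the receptors and -0.0449 for the inhibitory SMADs, SMURFs and corepressors. Beyond the replicate block over all arrays, the shares of all probe sets under these settings are not given. The counts therefore show how the settings differ and are not read as a trait of the members.

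Leaving out 1 array at a time, 0 to 8 probe sets passed, the 8 without DKO replicate 3, and 1 to 6 members had an unadjusted p under 0.05, the 6 without ApoE-KO replicate 1. From 3 to 15 members had groups that did not overlap, and 4 to 14 other pathway genes had an unadjusted p under 0.05, both highest without ApoE-KO replicate 1. Fewer arrays overlap less often by construction, and these counts too have no share of all probe sets beside them. Medians ran from 0.0819 to 0.263 for the TGF-beta ligands, 0.0457 to 0.135 for the binding proteins with Thbs1, -0.0169 to 0.0913 for the receptor-regulated SMADs and Smad4, -0.215 to -0.0786 for the ID genes, -0.097 to 0.0701 for the BMP and activin ligands, 0.00152 to 0.0905 for the receptors, -0.100 to 0.0829 for the antagonists, and -0.0717 to 0.042 for the inhibitory SMADs, SMURFs and corepressors. For the other moved values the cause was not tested. Medians of all 43 members stayed between 0.0062 and 0.0522. With 3 arrays in each group, the 95% intervals beside the genes show which sizes of difference these data allow.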
